A study of Mus musculus with 5 samples.

Results

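The pyruvate dehydrogenase (PDH) complex converts pyruvate into acetyl-CoA in the mitochondrion. The genes described here code for the enzymes that switch this complex off and on, for the subunit they act on and for the carrier that brings pyruvate to it. They are the kinases Pdk1, Pdk2, Pdk3 and Pdk4, the phosphatases Pdp1 and Pdp2, the E1 alpha subunit Pdha1, and the mitochondrial pyruvate carrier subunits Mpc1 and Mpc2. They were taken by gene name from the non-control probes of the arrays. All 9 were found, with 20 of 56605 probes and 9 of 36870 gene names.

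Livers came from female BALB/c mice aged 6 weeks, 6 hr after intraperitoneal treatment. Those treated formed the groups BSO+TGZ (700 mg/kg buthionine sulfoximine plus 300 mg/kg troglitazone), TGZ (300 mg/kg troglitazone), BSO+RGZ (700 mg/kg buthionine sulfoximine plus 300 mg/kg rosiglitazone), RGZ (300 mg/kg rosiglitazone), and the rest received vehicle. No group received BSO alone, so the BSO+TGZ and BSO+RGZ groups can be set against TGZ and RGZ but BSO has no level of its own. Each group was 1 pool of RNA on 1 single-colour Agilent array, with 6 livers in the pool, and the same vehicle array served all 4 comparisons with vehicle. Differences between groups were therefore not tested. The intervals given below are 95% intervals of the spot measurement error that the scanner software estimates, and they leave out all variation between animals, pools and labelling reactions.

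PDH kinases add phosphate to serines of the E1 alpha subunit and stop the complex, which spares pyruvate for gluconeogenesis in the fasted liver. PDH phosphatases remove the phosphate and restart it. Troglitazone and rosiglitazone are thiazolidinediones, agonists of the nuclear receptor PPAR gamma, and members of this class are also known to bind the mitochondrial pyruvate carrier. Pdk4 is a textbook target of the PPAR receptors, of FOXO1 and of glucocorticoids, and Pdk1 of the hypoxia factor HIF1. BSO blocks glutathione synthesis.

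Pdk4 and Pdk2 are shown by the 250 bases before their RefSeq start sites (build GRCm38.p6), because these kinases lay on opposite sides of vehicle in the treated groups. The Pdk4 window is chr6:5496279-5496528 and the first of 2 Pdk2 windows chr11:95041372-95041621, both on the minus strand and written 5′ to 3′. Capitals mark matches, on either strand, to the motifs listed after them.
Pdk4: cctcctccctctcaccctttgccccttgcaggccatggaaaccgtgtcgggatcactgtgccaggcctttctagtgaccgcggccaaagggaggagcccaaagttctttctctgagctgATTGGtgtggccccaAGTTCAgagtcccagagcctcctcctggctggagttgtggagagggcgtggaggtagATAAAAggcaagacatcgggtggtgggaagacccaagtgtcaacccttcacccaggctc
Pdk2: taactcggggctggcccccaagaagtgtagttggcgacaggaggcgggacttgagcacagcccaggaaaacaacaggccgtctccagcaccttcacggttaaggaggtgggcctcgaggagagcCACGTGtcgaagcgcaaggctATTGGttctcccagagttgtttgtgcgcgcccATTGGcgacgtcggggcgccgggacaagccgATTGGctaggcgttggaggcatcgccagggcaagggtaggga
The motifs searched were AGGTCA and AGTTCA (nuclear receptor cores), DR1 (AGGTCA repeated after a spacer of 1 base, the PPAR receptor element), TGTTTAC (FOXO), TGTTCT (glucocorticoid receptor), ACGTG (hypoxia core), CACGTG (E-box, which holds the hypoxia core), ATAAAA (core of a TATA box), GGGCGG (GC box) and the letters of the CCAAT box. The Pdk4 window held AGTTCA at positions -116 to -111 from the start site, CCAAT on the opposite strand at -131 to -127 and ATAAAA at -59 to -54. AGTTCA occurred in 11.8%, CCAAT in 33.8% and ATAAAA in 17.0% of the 32851 windows of this length in the table. AGGTCA (14.0% of windows), DR1 (0.0335%), TGTTTAC (3.17%), TGTTCT (16.1%), ACGTG (16.6%), CACGTG (6.02%) and GGGCGG (32.7%) had no match in the Pdk4 window, which says only that these letters are not in these 250 bases. The Pdk2 window held CACGTG at -126 to -121 and CCAAT on the opposite strand at -105, -73 and -42. The table lists another Pdk2 start site, whose window at chr11:95040876-95041125 held none of the motifs searched. A match is a description of the sequence and not a shown binding site. Of the 9 genes, 8 had windows in the table, 11 windows in all, and none was found for Pdp1.

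The signal of a probe is given as a scaled signal, its processed signal set to 100 at the 75th percentile of its array. A scaled signal can be compared between groups for 1 probe, but not between probes, because probes differ in how well they bind. By its brightest probe, Pdk3 was well above background on 2 arrays and each of the other 8 genes on all 5. The scanner software made that call for 51.9% to 55.2% of probes per array, no spot was saturated, and no signal of these genes reached that of the brightest spike-in RNA. Hepatocyte markers were well above background on all arrays, 7 of 7 on the array, with summed scaled signals of 471185 in BSO+TGZ, 533770 in TGZ, 380252 in BSO+RGZ, 399103 in RGZ and 440964 in vehicle. Because whole livers were measured, a change in the number of cells of a type and a change in RNA per cell cannot be told apart.

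Against vehicle, 2 of the 9 genes were at least 2-fold higher in TGZ and in BSO+TGZ, and in both comparisons they were Pdk4 and Pdp1. In BSO+RGZ 1 was, Pdp1, and in RGZ none was. Scaled on the spike-in RNA, the genes past 2-fold in TGZ were Pdk4 (higher), Pdk1 and Pdk2 (both lower), without Pdp1, and in BSO+TGZ they were Pdk4 and Pdp1 (higher) and Pdk2 (lower). Of all genes with a value, 19.6% differed by at least 2-fold between TGZ and vehicle (10.1% higher), 14.2% between BSO+TGZ and vehicle (8.31% higher), 6.83% between BSO+RGZ and vehicle (3.05% higher) and 3.33% between RGZ and vehicle. The median log2 difference of the genes with a value was 0.30 in TGZ, 0.13 in BSO+TGZ, -0.06 in BSO+RGZ and 0.02 in RGZ, against 0.02, -0.03, -0.05 and -0.03 over all genes. The measurement interval left out 0 for 3 higher and 2 lower genes in TGZ, 2 and 2 in BSO+TGZ, 2 and 2 in BSO+RGZ, and 1 and 0 in RGZ.

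**Figure D1:**
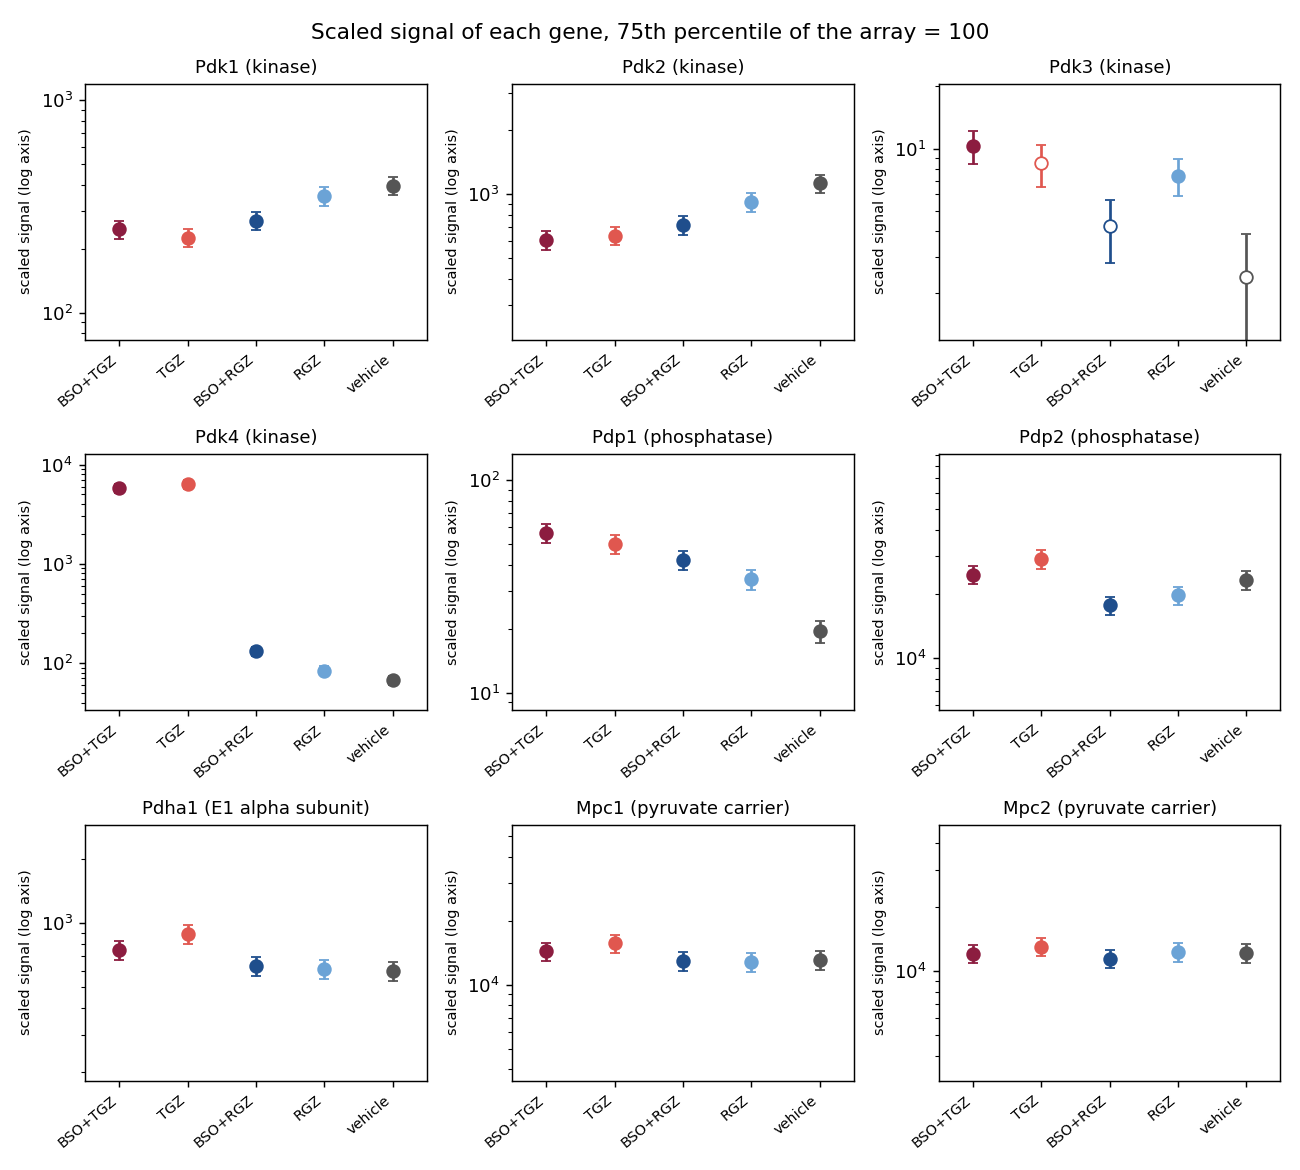
Scaled signal of the brightest probe of each gene (log axis, 75th percentile of the array at 100) in BSO+TGZ, TGZ, BSO+RGZ, RGZ and vehicle. Points are single arrays, bars 1 SD of spot measurement error, and open points are not well above background. Open points occur for Pdk3 alone, and Pdk4 stands at 5748 in BSO+TGZ and 6371 in TGZ against 132 or less in the other groups.

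Pdk4, the kinase that liver and muscle make in fasting, separated the troglitazone arrays from the rest. Its scaled signal was 5748 in BSO+TGZ, 6371 in TGZ, 132 in BSO+RGZ, 83.8 in RGZ and 67.1 in vehicle, from its single probe at chr6:5433441-5433500 (mm9, minus strand). It was 94.9-fold higher in TGZ than in vehicle (interval 71.8 to 125, log2 difference 6.57) and 85.6-fold higher in BSO+TGZ than in vehicle (64.7 to 113, log2 difference 6.42). These were the 11th highest of 21209 and the 9th highest of 21418 genes with a value. Both troglitazone arrays lay above all others, and between them the order was within measurement error.

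The rosiglitazone arrays showed a far smaller difference in Pdk4. The signal was 1.97-fold higher in BSO+RGZ than in vehicle (interval 1.49 to 2.61) and 1.25-fold higher in RGZ than in vehicle (0.943 to 1.65). The interval of the RGZ difference includes 1, so at this precision RGZ and vehicle were not separated. Over 10 settings, the main one included, the fold against vehicle ran from 58.1 to 95.8 in TGZ, 54.3 to 85.6 in BSO+TGZ, 1.63 to 2.15 in BSO+RGZ and 1.14 to 1.33 in RGZ, with the lowest value of each under normexp background correction. In TGZ the filters, the deposited table and the mean over its single probe gave the main log2 difference of 6.57 again. The spread there came from the scaling and background settings alone.

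Some markers of several cell types were also high on the troglitazone arrays, while other markers of the same cells were not. Some of them were higher than in vehicle on the rosiglitazone arrays too. Their part in the Pdk4 difference was not tested. White adipocyte markers summed to 309 in BSO+TGZ (5 of 5 well above background), 368 in TGZ (4 of 5), 150 in BSO+RGZ (2 of 5), 138 in RGZ (2 of 5) and 211 in vehicle (3 of 5). Adiponectin (Adipoq), the defining one, was well above background in BSO+TGZ alone, at 7.55. Cfd was 2.35-fold higher in BSO+TGZ and 2.81-fold higher in TGZ than in vehicle. In BSO+RGZ it was at least 8.66-fold lower than in vehicle, and in RGZ at least 9.15-fold lower. Retn was at least 2.87-fold higher in TGZ than in vehicle, and Plin1 and Lep did not pass 2-fold there. In TGZ against RGZ, Cfd was at least 25.7-fold, Retn at least 3.20-fold and Plin1 2.59-fold higher. Of the brown adipocyte markers, Cidea read 42.4 in BSO+TGZ and 76.1 in TGZ and was not well above background on the other 3 arrays, a difference from vehicle of at least 7.59-fold in BSO+TGZ and at least 13.6-fold in TGZ. Ucp1, the defining brown adipocyte gene, was not well above background on any array. Neutrophil markers, 6 of 6 well above background on every array, summed to 25363 in BSO+TGZ, 25248 in TGZ, 12512 in BSO+RGZ, 11864 in RGZ and 10938 in vehicle. Csf3r, at 10047 in vehicle, made up most of that sum. Within that list, S100a8, S100a9 and Retnlg were 16.8-fold to 42.3-fold higher in TGZ than in vehicle, Csf3r was 1.14-fold higher (interval 0.867 to 1.51) and Ly6g 1.62-fold lower. S100a8, S100a9 and Retnlg were also 4.46-fold, 3.81-fold and 2.90-fold higher in BSO+RGZ than in vehicle. In RGZ they were 3.29-fold, 2.80-fold and 2.19-fold higher. On both rosiglitazone arrays the intervals of Csf3r and Ly6g against vehicle included 1. Bile duct markers (2 of 4 on every array, Krt7 and Epcam not above background) summed to 450 in BSO+TGZ, 510 in TGZ, 66.3 in BSO+RGZ, 65.7 in RGZ and 117 in vehicle. They did not move together, since Sox9 read 371 in BSO+TGZ and 455 in TGZ against 34.0 in vehicle, and Krt19 read 71.4 in BSO+TGZ and 47.2 in TGZ against 76.8 in vehicle. Of 4 sinusoidal endothelium markers, Lyve1 was 13.4-fold higher and Clec4g 2.10-fold lower in TGZ than in vehicle. Lyve1 was also 3.29-fold higher in BSO+RGZ and 2.59-fold higher in RGZ than in vehicle. Of 6 Kupffer cell and macrophage markers, Cd68 was 2.90-fold higher in TGZ than in vehicle and the others did not pass 2-fold. Muscle is a tissue rich in Pdk4, and the muscle markers Acta1 and Ckm were not well above background on any array. The skeletal muscle list summed to 140 in BSO+TGZ, 170 in TGZ, 149 in BSO+RGZ, 144 in RGZ and 147 in vehicle, with 4 of 6 well above background on each.

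Pdk2, the kinase that is widely expressed and sensitive to the products of the complex, went the other way. Its scaled signal was 609 in BSO+TGZ, 637 in TGZ, 714 in BSO+RGZ, 917 in RGZ and 1123 in vehicle, from its single probe at chr11:94887669-94887728 (mm9, minus strand). All 4 treated arrays lay below vehicle. It was 1.84-fold lower in BSO+TGZ than in vehicle (interval 1.40 to 2.43), 1.76-fold lower in TGZ (1.34 to 2.33), 1.57-fold lower in BSO+RGZ (1.19 to 2.08) and 1.22-fold lower in RGZ (0.928 to 1.62). None of these reached 2-fold, although with spike-in scaling the log2 difference from vehicle was -1.07 in BSO+TGZ and -1.28 in TGZ, both past it. No neighbouring pair in the order of the groups differed beyond measurement error.

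Pdk1, the kinase known as a target of the hypoxia factor HIF1, was also lower by its brightest probe. The scaled signal at chr2:71739926-71739985 (mm9, plus strand) was 246 in BSO+TGZ, 225 in TGZ, 271 in BSO+RGZ, 353 in RGZ and 396 in vehicle. It was 1.61-fold lower in BSO+TGZ than in vehicle (interval 1.22 to 2.12), 1.76-fold lower in TGZ (1.33 to 2.32), 1.46-fold lower in BSO+RGZ (1.11 to 1.93) and 1.12-fold lower in RGZ (0.850 to 1.48). With spike-in scaling the log2 difference was -1.27 in TGZ, past 2-fold, and -0.88 in BSO+TGZ. As for Pdk2, the order of the groups held no neighbouring pair that differed beyond error.

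The 5 probes of Pdk1 did not all follow that order. The nearest of the other probes, at chr2:71739688-71739747, read 63.4 in BSO+TGZ, 67.0 in TGZ, 67.4 in BSO+RGZ, 93.9 in RGZ and 96.2 in vehicle, a similar order. The probe at chr2:71713523-71713582 read 76.5 in BSO+TGZ, 109 in TGZ, 66.2 in BSO+RGZ, 71.4 in RGZ and 99.8 in vehicle. On it TGZ was the highest array, with a log2 difference from vehicle of 0.12 against -0.81 for the brightest probe. The other 2 probes, well above background on 3 arrays, gave bounds, at least 2.04-fold and 2.02-fold lower in BSO+TGZ than in vehicle and at least 1.84-fold and 1.82-fold lower in TGZ. In BSO+RGZ they were a measured 1.75-fold (interval 1.03 to 2.96) and 2.04-fold (1.22 to 3.42) lower than in vehicle. A lower Pdk1 signal in TGZ thus holds for 4 of its 5 probes.

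Pdk3, a kinase best known from testis and brain, was close to the limit of detection. Its brightest probe, at chrX:91009951-91010010 (mm9, minus strand), read 10.3 in BSO+TGZ and 7.40 in RGZ, both well above background. It read 8.48 in TGZ, 4.22 in BSO+RGZ and 2.38 in vehicle, which were not. The signal was at least 1.84-fold higher in BSO+TGZ than in vehicle and at least 1.32-fold higher in RGZ than in vehicle, where "at least" means that the dim array was set to the lowest signal called well above background on it, or to its own value where that was higher. No order among TGZ, BSO+RGZ and vehicle can be read. The other Pdk3 probe was above background on no array.

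**Figure D2:**
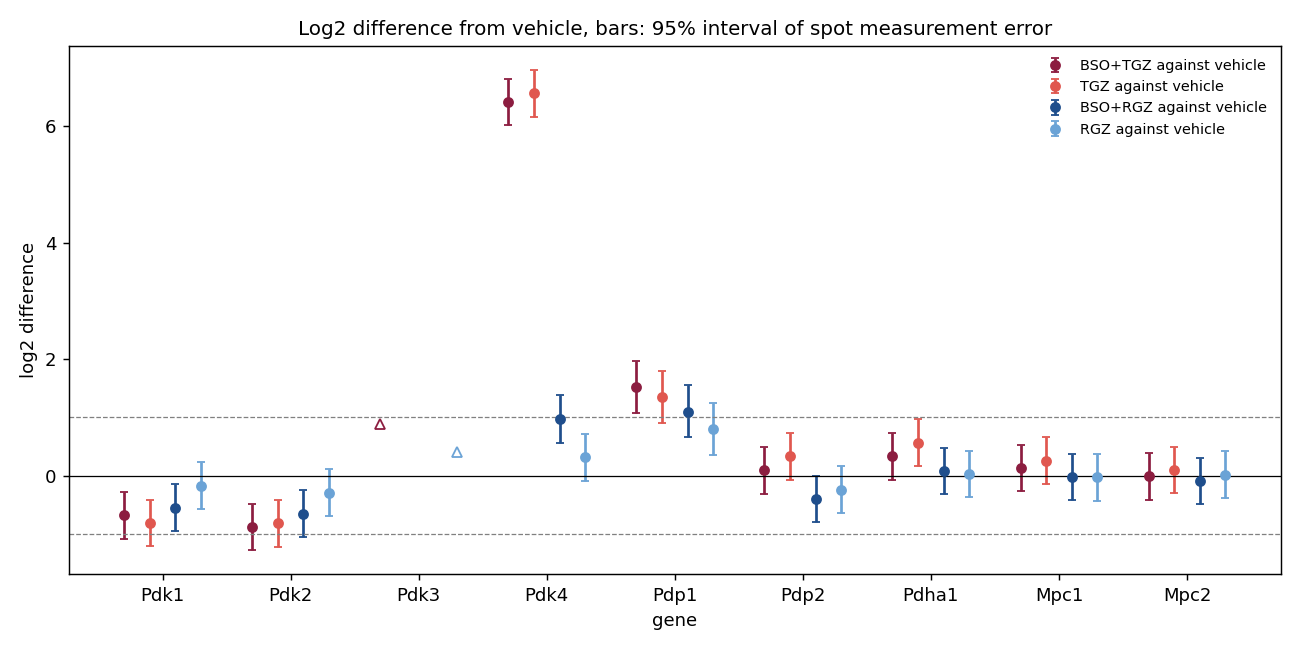
Log2 difference from vehicle of the brightest probe of each gene in BSO+TGZ, TGZ, BSO+RGZ and RGZ. Bars are 95% intervals of spot measurement error, triangles are bounds, and dashed lines mark 2-fold. Pdk4 stands at 6.42 in BSO+TGZ and 6.57 in TGZ, Pdp1 lies above 0 in all 4 groups, Pdk1 and Pdk2 lie below 0, and Mpc1 and Mpc2 stay near 0.

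Pdp1, the calcium-stimulated phosphatase that reactivates the complex, was higher in every treated group. Its scaled signal at chr4:11885487-11885546 (mm9, minus strand) was 56.2 in BSO+TGZ, 50 in TGZ, 42.0 in BSO+RGZ, 34.1 in RGZ and 19.5 in vehicle. All 4 treated arrays lay above vehicle, and the step between RGZ and vehicle was the one neighbouring pair that differed beyond error. It was 2.87-fold higher in BSO+TGZ than in vehicle (interval 2.11 to 3.90), 2.56-fold in TGZ (1.88 to 3.48), 2.15-fold in BSO+RGZ (1.58 to 2.92) and 1.74-fold in RGZ (1.28 to 2.37). With normexp background correction and quantile scaling, the log2 differences shrank to 0.78, 0.68, 0.54 and 0.34 in the same groups, all under 2-fold. With spike-in scaling the TGZ difference was 0.90, also under 2-fold, and that in BSO+TGZ was 1.33. The other Pdp1 probe, at chr4:11887784-11887843, read 11.4 in BSO+TGZ, 7.93 in TGZ and 11.1 in BSO+RGZ, against 3.68 in RGZ and 4.25 in vehicle, which were not well above background. On it the signal was at least 2.03-fold higher in BSO+TGZ, at least 1.42-fold in TGZ and at least 1.99-fold in BSO+RGZ than in vehicle.

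Pdp2, the phosphatase that does not need calcium, showed no such shift against vehicle. Its brightest probe, at chr8:107119568-107119627 (mm9, plus strand), read 24678 in BSO+TGZ, 29260 in TGZ, 17658 in BSO+RGZ, 19698 in RGZ and 23250 in vehicle. Vehicle lay between the troglitazone and the rosiglitazone arrays, and no neighbouring pair differed beyond error. The other probe, at chr8:107120490-107120549, read 458 in BSO+TGZ, 352 in TGZ, 373 in BSO+RGZ, 425 in RGZ and 468 in vehicle. The 2 probes disagreed in sign in TGZ against vehicle, with log2 differences of 0.33 (brightest) and -0.41, and with spike-in scaling the brightest gave -0.12.

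Pdha1, the E1 alpha subunit that carries the regulated serines, read 749 in BSO+TGZ, 890 in TGZ, 632 in BSO+RGZ, 609 in RGZ and 597 in vehicle, at chrX:156560573-156560632 (mm9, minus strand). It was 1.49-fold higher in TGZ than in vehicle (interval 1.13 to 1.97), and the intervals of the other 3 treated groups included 1. With spike-in scaling, the TGZ log2 difference was 0.12 in place of 0.57. A dimmer Pdha1 probe ran from 11.5 to 15.8 with intervals that all included 0 against vehicle.

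The subunits Mpc1 and Mpc2, which pair to form the carrier that admits pyruvate, had close signals in all groups. Mpc1, at chr17:8490447-8490506 (mm9, plus strand), read 14328 in BSO+TGZ, 15644 in TGZ, 12942 in BSO+RGZ, 12797 in RGZ and 13092 in vehicle. Mpc2, whose probe spans chr1:167409699-167411082 (mm9, plus strand), read 12070 in BSO+TGZ, 13045 in TGZ, 11433 in BSO+RGZ, 12312 in RGZ and 12183 in vehicle. In none of the 8 comparisons did the interval of these probes leave out 0, and with spike-in scaling the sign in TGZ against vehicle turned, with log2 differences of -0.20 for Mpc1 and -0.36 for Mpc2 in place of 0.26 and 0.10. The widest Mpc1 difference was 1.22-fold higher in TGZ than in RGZ (interval 0.926 to 1.61), so a change of up to 1.61-fold is within the measurement error. The dimmer Mpc2 probe, at chr1:167393628-167393686, read 43.2 in BSO+TGZ, 42.6 in TGZ, 45.1 in BSO+RGZ, 47.6 in RGZ and 52.0 in vehicle, with intervals that all included 0. The dimmest Mpc1 probe read 42.1 in BSO+TGZ, 34.0 in TGZ, 25.5 in BSO+RGZ, 21.5 in RGZ and 26.5 in vehicle, and was 1.59-fold higher in BSO+TGZ than in vehicle (1.17 to 2.15).

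**Figure D3:**
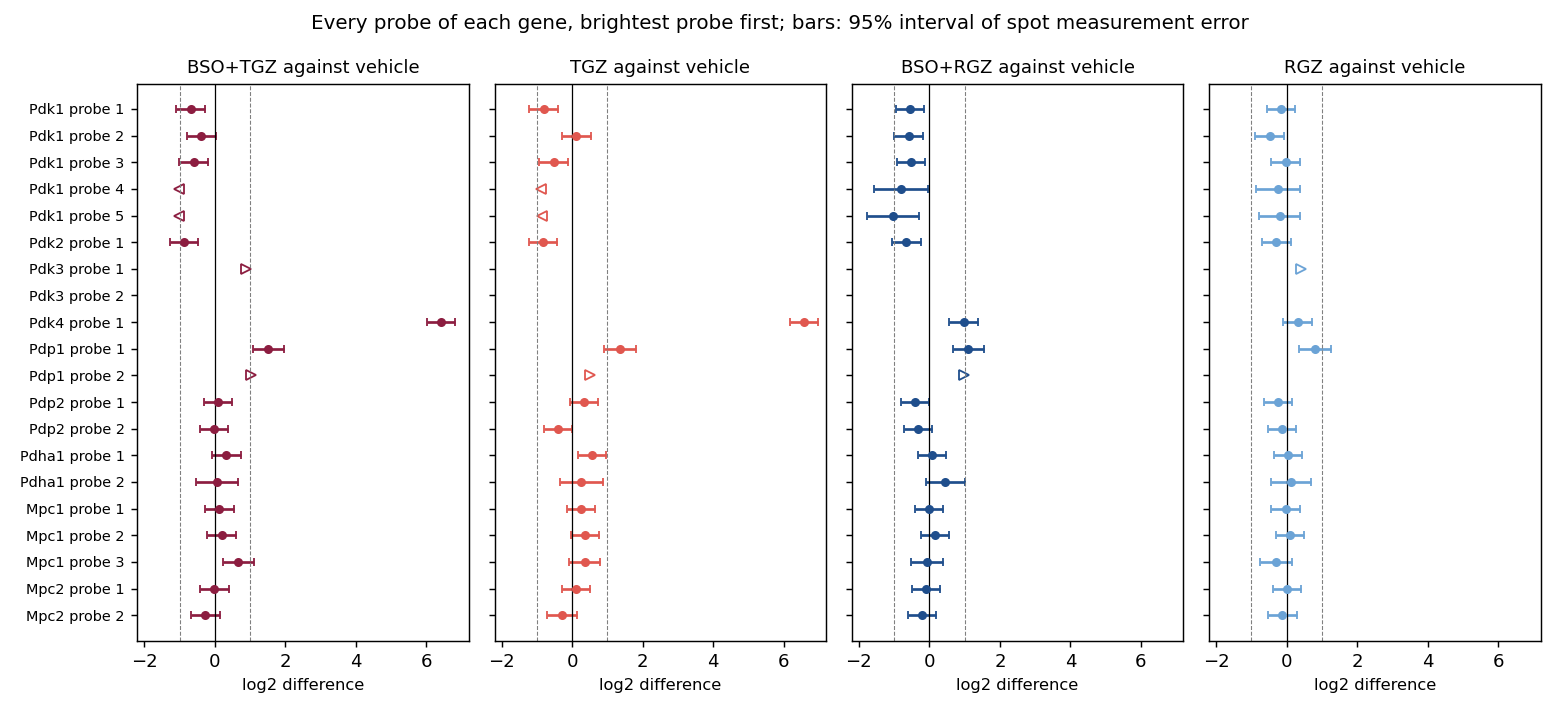
Log2 difference from vehicle for each probe of the 9 genes, brightest probe of a gene first, in BSO+TGZ, TGZ, BSO+RGZ and RGZ. Points carry 95% intervals of spot measurement error, triangles are bounds, dashed lines mark 2-fold, and a blank line is a probe above background on neither array. Pdk1 probe 2, Pdp2 probe 2 and Mpc2 probe 2 depart in sign from the brightest probe of their gene in TGZ, at 0.12, -0.41 and -0.29.

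Over the 5 arrays the spread between the lowest and highest log2 signal set the genes apart. Pdk4 had a range of 6.57, the 11th widest among 18487 genes that passed the background call on every array. Pdp1 had 1.52, Pdk2 0.88, Pdk1 0.81, Pdp2 0.73 and Pdha1 0.57. Mpc1, at 0.29, ranked 16328th and Mpc2, at 0.19, ranked 17745th, near the narrow end of all genes.

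The question of what troglitazone does that rosiglitazone does not was addressed by 2 pairs at matched dose and time, TGZ against RGZ and BSO+TGZ against BSO+RGZ. The compounds share the thiazolidinedione head and differ in the tail, a vitamin E-like chromane in troglitazone and an aminopyridine in rosiglitazone. Pdk4 was the one of the 9 genes past 2-fold in each pair, where 18.0% (9.41% higher) and 13.6% (8.34% higher) of all genes were. It was 76.0-fold higher in TGZ than in RGZ (interval 57.6 to 100, 4th highest of all genes with a value) and 43.5-fold higher in BSO+TGZ than in BSO+RGZ (32.9 to 57.4, 2nd highest).

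Smaller differences between the compounds were seen without BSO. Pdk1 was 1.57-fold lower (interval 1.19 to 2.07) and Pdk2 1.44-fold lower (1.09 to 1.90) in TGZ than in RGZ. Pdp1 was 1.47-fold (1.10 to 1.96), Pdp2 1.49-fold (1.13 to 1.96) and Pdha1 1.46-fold (1.11 to 1.93) higher in TGZ than in RGZ. The Pdk1 probe at chr2:71713523-71713582 went against this, 1.52-fold higher in TGZ (1.15 to 2.02), and the dimmer Pdp2 probe was 1.21-fold lower (0.917 to 1.60). Scaled on the spike-in RNA, the log2 differences of Pdp1, Pdp2 and Pdha1 were 0.00, 0.02 and 0.00, and those of Pdk1 and Pdk2 -1.20 and -1.08, because that scaling moves the median of all genes in this comparison by -0.54. The order of these 5 genes relative to the median of all genes is the same under either scaling, since it adds 1 constant per array.

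With BSO in both groups, Pdp1 and Pdp2 stood outside the measurement error beside Pdk4 by their brightest probes. Pdp1 was 1.34-fold higher in BSO+TGZ than in BSO+RGZ (interval 1.00 to 1.78) and Pdp2 1.40-fold higher (1.06 to 1.84). The dimmer probes gave 1.02-fold for Pdp1 (0.665 to 1.57) and 1.23-fold for Pdp2 (0.930 to 1.62), with intervals that included 1. By their brightest probes, the intervals of Pdk1, Pdk2, Pdha1, Mpc1 and Mpc2 included 0. Spike-in scaling, which moves the median of all genes here by -0.32, gave log2 differences of 0.10 for Pdp1, 0.16 for Pdp2, -0.46 for Pdk1 and -0.55 for Pdk2. The dimmest Mpc1 probe was 1.65-fold higher in BSO+TGZ than in BSO+RGZ (interval 1.22 to 2.24) and 1.58-fold higher in TGZ than in RGZ (1.16 to 2.16). Pdk3 was at least 1.93-fold higher in BSO+TGZ than in BSO+RGZ.

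With BSO added, no gene of the 9 differed by 2-fold by its brightest probe, either in BSO+TGZ against TGZ (2.05% of all genes) or in BSO+RGZ against RGZ (1.24%). Pdk4 was 1.58-fold higher in BSO+RGZ than in RGZ (interval 1.19 to 2.09), the one measured difference of a brightest probe whose interval left out 0. The dimmer Pdp1 probe did pass 2-fold, at least 2.22-fold higher in BSO+RGZ than in RGZ. Among the dimmer Pdk1 probes, the one at chr2:71713523-71713582 was 1.42-fold lower in BSO+TGZ than in TGZ (interval 1.07 to 1.88), and 2 others were 1.39-fold (1.05 to 1.84) and 1.77-fold (1.06 to 2.97) lower in BSO+RGZ than in RGZ. For Pdk4 in BSO+TGZ against TGZ the log2 difference was -0.15, and 0.12 with spike-in scaling. The BSO difference with troglitazone minus that with rosiglitazone was -0.81 for Pdk4 on the log2 scale, with a measurement interval of -1.37 to -0.24. For Pdk1 the same quantity was 0.51 (interval -0.06 to 1.08), and for the other 6 genes with a value the interval also included 0. Pdk3 read 10.3 in BSO+TGZ against 8.48 in TGZ, where it was not well above background. That log2 difference of 0.27 was within its error of 0.43. In BSO+RGZ Pdk3 gave a bound, at least 1.40-fold lower than in RGZ. No gene had opposite BSO differences with both intervals outside 0.

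**Figure D4:**
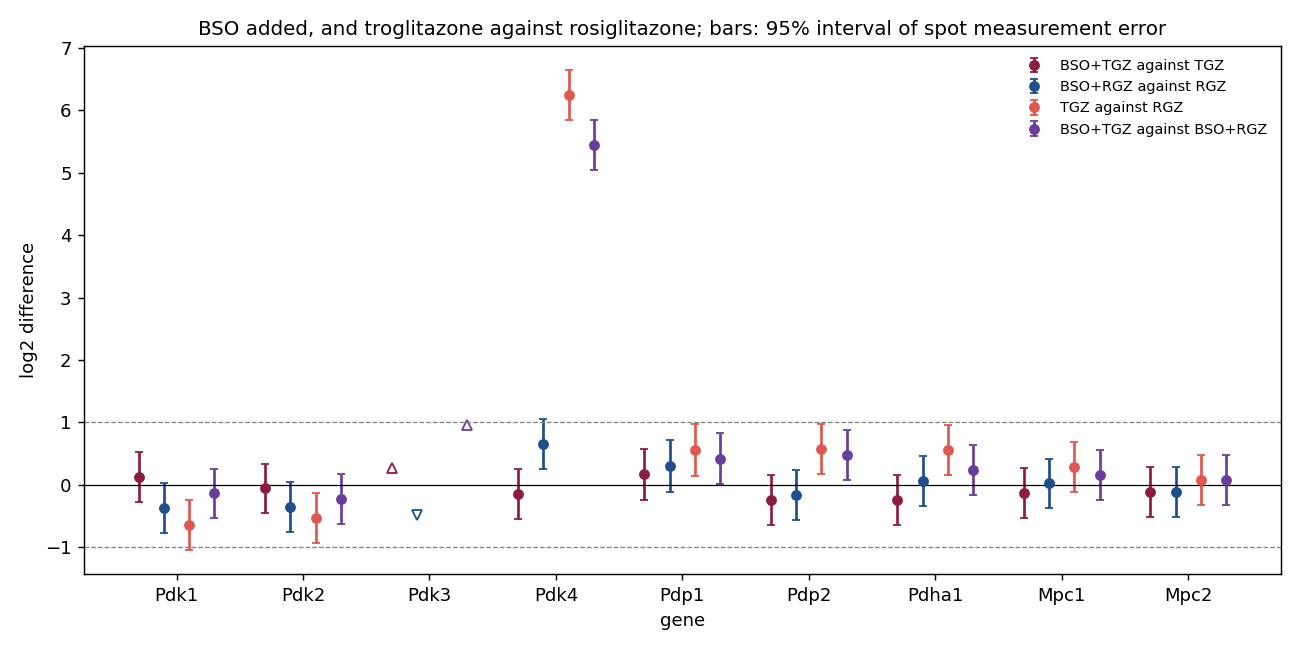
Log2 difference of the brightest probe of each gene for BSO+TGZ against TGZ, BSO+RGZ against RGZ, TGZ against RGZ and BSO+TGZ against BSO+RGZ. Bars are 95% intervals of spot measurement error and dashed lines mark 2-fold. Triangles are bounds, except that of Pdk3 in BSO+TGZ against TGZ, where the dim TGZ array stands at its own value. Pdk4 differs by 6.25 and 5.44 between the compounds, and its BSO differences are -0.15 with troglitazone and 0.66 with rosiglitazone.

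Against vehicle, no other listed part of the PDH complex passed 2-fold as Pdk4 and Pdp1 did. Of 7 listed genes of the complex and its phosphatase regulator, 6 were measured and none passed 2-fold in any of the 8 comparisons. Pdhb, the E1 beta subunit, read 5998 in BSO+TGZ, 5729 in TGZ, 6704 in BSO+RGZ, 5973 in RGZ and 6653 in vehicle. Dlat, the E2 subunit, read 172 in BSO+TGZ, 216 in TGZ, 113 in BSO+RGZ, 109 in RGZ and 174 in vehicle. Pdpr, the regulatory subunit of the phosphatase, read 140 in BSO+TGZ, 147 in TGZ, 142 in BSO+RGZ, 138 in RGZ and 144 in vehicle. The median log2 difference of this list from vehicle was 0.04 in BSO+TGZ, 0.13 in TGZ, 0.05 in BSO+RGZ and -0.02 in RGZ. Pdha2, the testis form of E1 alpha, was not well above background on any array. Of 6 genes that attach the lipoate cofactor of E2, 1 was at least 2-fold lower in BSO+TGZ and in TGZ than in vehicle, none was higher, and the median was -0.43 in BSO+TGZ, -0.58 in TGZ, -0.03 in BSO+RGZ and -0.06 in RGZ. That gene was Lipt1, a lipoyl transferase, at 26.2 in BSO+TGZ, 21.1 in TGZ, 63.3 in BSO+RGZ, 67.6 in RGZ and 58.2 in vehicle. Of all genes, 14.2% passed 2-fold in BSO+TGZ and 19.6% in TGZ, so 1 of the 6 lipoate genes is near the share of all genes.

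Of 16 measured genes that supply pyruvate, 4 were at least 2-fold higher and 2 lower in TGZ than in vehicle, 2 and 2 in BSO+TGZ, and none in BSO+RGZ or RGZ. All genes also passed 2-fold more often in TGZ (19.6%) and BSO+TGZ (14.2%) than in BSO+RGZ (6.83%) and RGZ (3.33%). Pfkfb3, an enzyme that makes the activator of glycolysis, read 1038 in BSO+TGZ, 1515 in TGZ, 162 in BSO+RGZ, 138 in RGZ and 136 in vehicle. Pklr, the liver pyruvate kinase, read 46.3 in BSO+TGZ, 40.8 in TGZ, 123 in BSO+RGZ, 159 in RGZ and 148 in vehicle. Slc16a1, a plasma membrane carrier of lactate and pyruvate, was higher in TGZ than in vehicle by 1.54 on the log2 scale and Sds, which makes pyruvate from serine, by 1.41. Pfkfb1, the liver gene of the same family as Pfkfb3, differed by -2.28. The median of the list was 0.03 in TGZ, against 0.02 over all genes.

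Genes that use pyruvate or acetyl-CoA outside the complex had 2 of 8 measured members at least 2-fold lower in TGZ than in vehicle, 1 in BSO+TGZ, 1 in BSO+RGZ and none in RGZ, and no member higher. In TGZ 19.6% of all genes passed 2-fold in either direction, so the list's share was near that of all genes. Acaca, which commits acetyl-CoA to fatty acid synthesis, read 1063 in BSO+TGZ, 697 in TGZ, 1640 in BSO+RGZ, 1802 in RGZ and 1966 in vehicle. Acly, which forms acetyl-CoA in the cytosol, read 2192 in BSO+TGZ, 2167 in TGZ, 2292 in BSO+RGZ, 2974 in RGZ and 5409 in vehicle, and was thus lower in all treated groups. The median of the list in TGZ was -0.45.

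Among 21 transcription factors and coactivators known to act on PDK genes, 5 were at least 2-fold higher and 2 lower in TGZ, and 5 and 2 in BSO+TGZ. In BSO+RGZ 0 were higher and 3 lower, and in RGZ 0 and 1. Of all genes, 19.6% passed 2-fold in TGZ (10.1% higher), 14.2% in BSO+TGZ (8.31% higher), 6.83% in BSO+RGZ and 3.33% in RGZ. Nr4a1, an early-response nuclear receptor, read 2394 in BSO+TGZ, 3310 in TGZ, 95.5 in BSO+RGZ, 69.7 in RGZ and 69.9 in vehicle. Ppargc1a, the PGC-1 alpha coactivator, read 980 in BSO+TGZ, 1368 in TGZ, 148 in BSO+RGZ, 160 in RGZ and 255 in vehicle. Foxo1, a forkhead factor that insulin restrains, read 1622 in BSO+TGZ, 1915 in TGZ, 784 in BSO+RGZ, 788 in RGZ and 802 in vehicle. The 2 lower genes in TGZ and in BSO+TGZ were Srebf1 and Esrrg. Srebf1 read 3338 in BSO+TGZ, 1835 in TGZ, 3571 in BSO+RGZ, 9320 in RGZ and 9105 in vehicle. Esrrg read 22.7 in BSO+TGZ, 21.7 in TGZ, 9.82 in RGZ and 50.3 in vehicle, and was not well above background in BSO+RGZ. Unlike Nr4a1, the receptors Ppara, Pparg and Nr3c1, the last being the glucocorticoid receptor, did not pass 2-fold in TGZ. Their log2 differences from vehicle were -0.42 for Ppara, -0.14 for Pparg and -0.83 for Nr3c1. The median of the list was -0.07 in BSO+TGZ, -0.38 in TGZ, -0.21 in BSO+RGZ and -0.17 in RGZ.

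Of 20 PPAR and FOXO1 targets that are often measured beside Pdk4, 11 were at least 2-fold higher and 1 lower in BSO+TGZ than in vehicle, 10 and 1 in TGZ, 2 and 1 in BSO+RGZ, and 2 and 1 in RGZ. Of all genes, 14.2% passed 2-fold in BSO+TGZ (8.31% higher), 19.6% in TGZ (10.1% higher), 6.83% in BSO+RGZ and 3.33% in RGZ. The median of the list was 1.11 in BSO+TGZ, 1.01 in TGZ, 0.32 in BSO+RGZ and 0.29 in RGZ. Over all genes it was -0.03, 0.02, -0.05 and -0.03. The list was chosen with earlier results of these data known. Its genes did not share 1 pattern over the groups. Igfbp1, an insulin-repressed FOXO1 target, read 132868 in BSO+TGZ, 171907 in TGZ, 808 in BSO+RGZ, 912 in RGZ and 2996 in vehicle, so that the rosiglitazone arrays lay below vehicle. Fgf21, a PPAR alpha target secreted by liver, was highest with rosiglitazone, at 410 in BSO+TGZ, 317 in TGZ, 1497 in BSO+RGZ, 568 in RGZ and 83.2 in vehicle. Cpt1a, the gate of mitochondrial fatty acid oxidation, read 5829 in BSO+TGZ, 6044 in TGZ, 5752 in BSO+RGZ, 6220 in RGZ and 3118 in vehicle. G6pc, the last step of glucose release and another FOXO1 target, read 2307 in BSO+TGZ, 354 in TGZ, 6095 in BSO+RGZ, 5716 in RGZ and 4632 in vehicle. Cpt1a was thus similar in all treated groups, and Igfbp1 and G6pc went in opposite directions in TGZ.

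The genes nearest to Pdk4 in pattern were sought among 13912 named genes that passed the background call on every array, by the root mean square difference of the 5 log2 signals after each gene's mean was removed. They were Hilpda at 0.24, Arid5a at 0.26, Atf3 at 0.30, Sphk1 at 0.43 and Nr4a1 at 0.47. Hilpda, a lipid droplet protein, read 3378 in BSO+TGZ, 4438 in TGZ, 96.4 in BSO+RGZ, 78.9 in RGZ and 57.3 in vehicle. Atf3, a stress-response transcription factor, read 651 in BSO+TGZ, 1066 in TGZ, 15.1 in BSO+RGZ, 15.9 in RGZ and 8.71 in vehicle. Sphk1, which makes sphingosine 1-phosphate, read 968 in BSO+TGZ, 1315 in TGZ, 31.3 in BSO+RGZ, 26.0 in RGZ and 26.3 in vehicle. All of these 5 genes were high on both troglitazone arrays and low on the other 3. The likeness is over 5 arrays and describes these arrays only.

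The genes nearest to Pdp1 were Smim3 at 0.05, Gtf2a2 at 0.07 and Plin5 at 0.08 on the same measure. The measure is not scaled to a gene's range. The distances for Pdp1 (range 1.52) and for Pdk4 (range 6.57) therefore cannot be compared. Gtf2a2, a subunit of the general transcription factor TFIIA, read 2365 in BSO+TGZ, 2449 in TGZ, 1869 in BSO+RGZ, 1512 in RGZ and 887 in vehicle. Plin5, a coat protein of lipid droplets, read 13481 in BSO+TGZ, 12741 in TGZ, 9929 in BSO+RGZ, 8622 in RGZ and 5383 in vehicle. In each of the 3 genes, as in Pdp1, vehicle was the lowest array and RGZ the next.

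**Figure D5:**
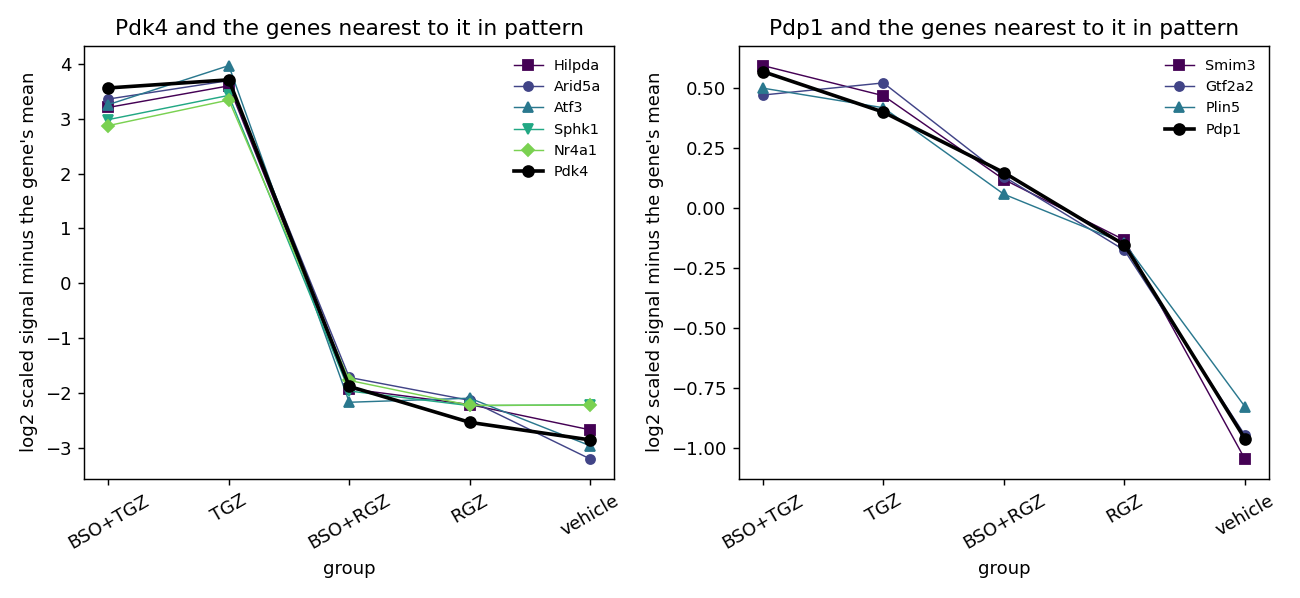
Log2 scaled signal minus the gene's mean over the 5 arrays, for Pdk4 with its 5 nearest genes (left) and Pdp1 with its 3 nearest (right), by group. Lines join single arrays of unordered groups as a guide to the eye. The Pdk4 set is high in BSO+TGZ and TGZ and low in the other groups, and the Pdp1 set is lowest in vehicle.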

How the data were processed

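Per the series' design text, the authors pooled liver RNA of 6 animals per group. They hybridised each Cy3-labelled pool to 1 of 5 Agilent mouse arrays, which lay on 1 slide and were scanned on 1 day. Per the file headers, the deposited array files hold the processed signal of each spot, an intensity from Agilent Feature Extraction 12.0.3.1 after background subtraction and detrending, not scaled between arrays. The log2 values of the authors' deposited table differed from the log2 of the processed signal by a single constant for each array. Its column medians were 4.07 (BSO+TGZ), 4.01 (TGZ), 3.92 (BSO+RGZ), 4.00 (RGZ) and 4.02 (vehicle), so genes were not centred. The sources used here do not name the software behind these constants. Probe coordinates are mm9 per the file headers, and an annotation of that build was not used here, so exons and UTRs are not stated. The names troglitazone, rosiglitazone and buthionine sulfoximine are from the study's title and general knowledge.

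The 59305 non-control spots per array were averaged to 56605 probes and divided by the array's 75th percentile (169.8 in BSO+TGZ, 141.5 in TGZ, 191.2 in BSO+RGZ, 208.4 in RGZ and 184.5 in vehicle). Log2 differences were taken with Python 3.11.15 (pandas 2.3.3, numpy 2.4.6). Their interval is 1.96 times the combined Feature Extraction error of both arrays, whose median per array was 0.146 on the log2 scale, above the SD of 0.041 to 0.043 among replicate spots. The procedure was tested on simulated data. A gene stands for its brightest probe and counts when it differs by at least 2-fold. It has a value where both arrays of the pair are well above background. Where only 1 is, it has a value if that array reads higher than the dim one, set as for the bounds above. The number of arrays limits the precision.

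Alternatives were scaling to the median, to quantiles or to the spike-in RNA, normexp background correction (limma 3.58.1 in R 4.3.3, offset 50), the deposited log2 table, filters on dim and flagged spots, the mean over probes, and thresholds of 1.5-fold and 4-fold. Named genes are the 9 genes, members of 8 gene lists past 2-fold, and the 5 and 3 genes nearest in pattern to the members with the widest and second widest range. These members and lists were chosen with earlier results of these data known. A few list genes below 2-fold are named for their role and were chosen after their values were seen. Promoter sequences are from RefSeq, build GRCm38.p6.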

Additional observations from a re-analysis of the deposited data

How the results depend on the processing

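Of 615 values of single genes under the alternatives, 590 moved by less than the measurement error of the value, 25 by more, and no difference past 2-fold changed sign. Many of the 590 had no room to move, so this count is not a measure of robustness. The filters on dim spots keep the signal of a gene measured on all arrays. The deposited table has its 75th percentile at 7.47 on every array, which is the main scaling. For a gene with a single probe, the mean over probes is the main value. Counts of genes past 2-fold depended on the setting as follows. With normexp background correction the count against vehicle was 1 in TGZ and 1 in BSO+TGZ (2 each as reported) and 0 in BSO+RGZ (1 as reported), where Pdp1 fell below 2-fold. Spike-in scaling gave 3 in TGZ against vehicle (Pdk4 higher, Pdk1 and Pdk2 lower, Pdp1 lost at a log2 difference of 0.90) and 3 in BSO+TGZ (Pdk2 lower beside Pdk4 and Pdp1). With no filter on dim spots both counts were 3, with Pdk3 added. With a threshold of 1.5-fold the count against vehicle was 5 in BSO+TGZ, 4 in TGZ, 3 in BSO+RGZ and 1 in RGZ (Pdp1); it was 1 in BSO+RGZ against RGZ (Pdk4), 2 in TGZ against RGZ and 2 in BSO+TGZ against BSO+RGZ. With 4-fold it was 1 in BSO+TGZ, 1 in TGZ and 0 in BSO+RGZ. The mean over probes gave 4 in BSO+TGZ against vehicle, 1 in RGZ against vehicle (Pdk3) and 2 in BSO+TGZ against BSO+RGZ. With no filter on dim spots RGZ against vehicle gave 1 (Pdk3) and BSO+TGZ against BSO+RGZ gave 2. In BSO+RGZ against vehicle, scaling to the median gave 2 and to the spike-in RNA 2, Pdk4 and Pdp1. Spike-in scaling gave 3 in TGZ against RGZ, with Pdk1 and Pdk2 lower. That scaling moved the median of all genes by -0.46 in TGZ against vehicle, -0.19 in BSO+TGZ against vehicle and 0.27 in BSO+TGZ against TGZ. Of the genes past 2-fold in TGZ against vehicle 21.9% were then higher, in place of 51.5%, and in TGZ against RGZ 17.3%, in place of 52.4%. For BSO+TGZ against TGZ the share was 94.5% in place of 75.8%, and for BSO+TGZ against BSO+RGZ 30.7% in place of 61.3%. With scaling to the median it was 59.7% in place of 41.4% in BSO+RGZ against RGZ, and 57.6% in place of 44.6% in BSO+RGZ against vehicle. In TGZ against vehicle spike-in scaling also turned the sign of Pdp2 (-0.12), Mpc1 (-0.20) and Mpc2 (-0.36), none of which had an interval outside 0. The cause of the normexp and probe-mean differences was not tested. No paired analysis was possible because each group had 1 array. Signals near background limit Pdk3 and the dimmer probes of Pdk1 and Pdp1.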

Other observations

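Bckdk, the kinase that does for branched-chain keto acid dehydrogenase what the PDKs do for the PDH complex, read 51.3 in BSO+TGZ, 30 in TGZ, 177 in BSO+RGZ, 169 in RGZ and 146 in vehicle. Its log2 difference from vehicle was -1.51 in BSO+TGZ, -2.28 in TGZ, 0.28 in BSO+RGZ and 0.22 in RGZ. It was the 1 gene past 2-fold in TGZ among 8 measured genes of the related dehydrogenases, whose median in TGZ was -0.07. Of all genes, 19.6% passed 2-fold in TGZ, so 1 of 8 is not above the share of all genes. Pdk4 and Bckdk thus lay on opposite sides of vehicle on both troglitazone arrays.

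Of 10 hypoxia targets often measured beside Pdk1, 3 were at least 2-fold higher and 2 lower in BSO+TGZ than in vehicle, and 4 higher and 0 lower in TGZ. Of all genes, 14.2% passed 2-fold in BSO+TGZ (8.31% higher) and 19.6% in TGZ (10.1% higher). The median of the hypoxia list was 0.05 in BSO+TGZ and 0.21 in TGZ. Slc2a1, a glucose transporter, read 1199 in BSO+TGZ, 1415 in TGZ, 399 in BSO+RGZ, 307 in RGZ and 347 in vehicle. Hif1a itself read 1815 in BSO+TGZ, 2420 in TGZ, 575 in BSO+RGZ, 502 in RGZ and 497 in vehicle. Pdk1 was lower than vehicle by its brightest probe on the same arrays.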
